A study of Mus musculus with 10 samples.

Results

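Fatty acid oxidation was examined through 35 listed genes of its mitochondrial and peroxisomal branches in white adipose tissue of the epididymis, a depot of visceral fat. The rule names the genes as parts of the pathway and uses no measured value, although the list was drawn up with earlier results of these data known. Of the 35 symbols, 31 matched a row among the 23930 amplicons of the gene table, namely 17 mitochondrial and 12 peroxisomal genes and the regulators Ppara and Pdk4. Hadhb, Etfb, Acot1 and Acot2 were not analysed here. Decr2 was below the filter on low counts, which left 30 genes to test.

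The tissue came from 5 male mice that lacked serglycin (Srgn-/-, called KO) and 5 that had it (Srgn+/+, called WT). Serglycin is a proteoglycan of secretory granules, made mainly by cells of the blood lineage. All 10 animals were C57BL/6, aged 18 weeks, and had eaten a diet rich in sucrose and fat over 8 weeks, so no group on another diet enters the comparison. The labels tie the deletion to no cell type, and the numbers KO 1 to 5 and WT 1 to 5 name libraries without pairing them.

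In beta-oxidation, a fatty acid bound to coenzyme A is shortened by rounds of dehydrogenation, hydration, a further dehydrogenation and cleavage by a thiolase. Mitochondria receive long chains through the carnitine shuttle and pass the electrons to the respiratory chain. Peroxisomes shorten very long and branched chains and start the breakdown of phytanic acid by alpha-oxidation. White fat mainly stores fatty acids, and the nuclear receptor PPAR alpha is known to drive many oxidation genes when fatty acids are burned.

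No gene of the pathway passed the test between the genotypes. At an adjusted p under 0.05 in the quasi-likelihood test of edgeR, 0 of 30 genes were called, where 0.00786% of the 12719 genes tested were called, which is Srgn alone. Neither DESeq2 nor limma, run as voom and as trend, called any of the 30. At an unadjusted p under 0.05, 3 of the 30 were higher in KO fat and 0 were lower. Of all genes, 12.8% reached that level, 6.77% higher and 6.06% lower in KO, so a count of 3 of 30 lies near the background. The 3 were Cpt2, Scp2 and Eci2, and the smallest adjusted p among the 30 was 0.235.

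The median log2 fold change of KO over WT was 0.018 over the 17 mitochondrial genes and 0.089 over the 11 tested peroxisomal genes, against -0.0014 over all genes tested. Values were higher in KO for 9 of the 17 mitochondrial and 8 of the 11 peroxisomal genes, where 49.7% of all genes were higher. The fold changes of 14 of the 30 genes lay within 0.1 of 0 on the log2 scale. With upper-quartile factors or total reads alone, 24 of the 30 had higher values in KO instead of 18, while the median of all genes moved by 0.031 and 0.051. The direction of the smallest changes therefore depends on the scaling, and the median SE of 0.121 over the 30 genes sets what these 10 libraries could resolve.

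**Figure D1:**
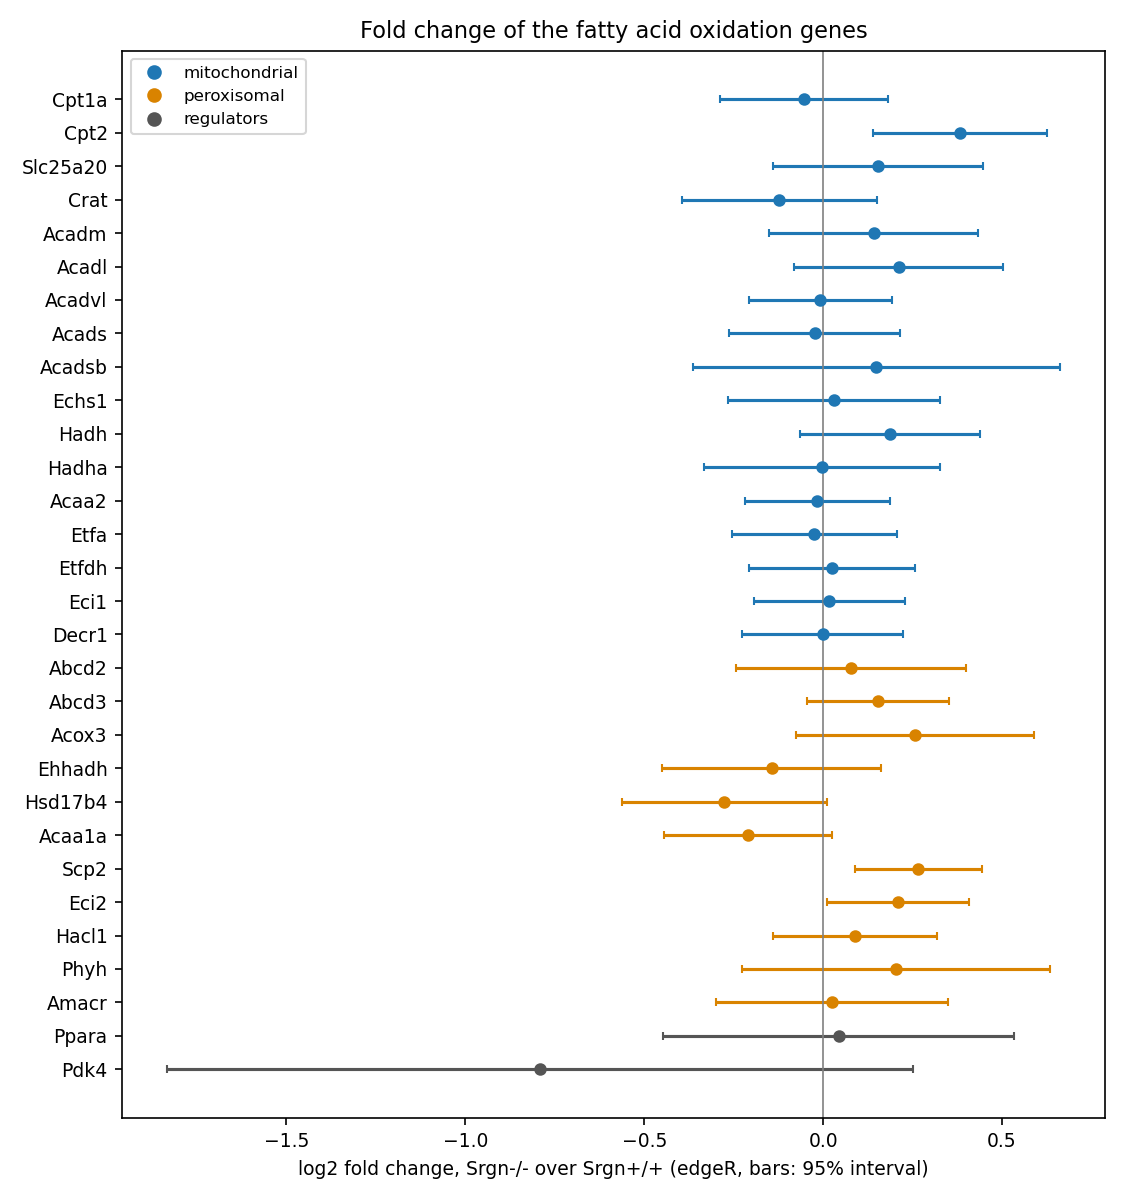
The x axis gives the log2 fold change of Srgn-/- over Srgn+/+ fat in edgeR for the 30 tested genes, one per line, with 95% intervals from 5 libraries a group and colours for the compartment. Before adjustment over all genes, the intervals of Cpt2, Scp2 and Eci2 lie above 0, and Pdk4 has the widest interval.

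Depth was 8176075 to 10128049 reads in KO and 7824764 to 10757779 reads in WT libraries, and each tested gene of the pathway had 55 to 9390 reads in a library. The kit reads each gene at 1 amplicon, so levels, given as normalized CPM (read counts scaled to a common library size), are compared between libraries and not between genes. The Srgn amplicon had 3, 1, 0, 0 and 12 reads in KO 1 to 5, against 776, 1047, 1301, 851 and 1005 reads in WT 1 to 5, as the genotypes on the labels state. Markers of fat cells, among them Fabp4, Adipoq and Plin1, summed to 32309 to 40521 CPM in KO and 33635 to 52860.5 CPM in WT. Genes of the epididymis, a neighbouring organ, summed to 2549.6 CPM in KO 3, 979 CPM in KO 5 and 354 CPM in WT 4, and to at most 13.5 CPM in the other 7 libraries.

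Promoters are printed for 5 genes, since Cpt2, Scp2 and Eci2 had the smallest p-values and Phyh and Cpt1a moved in opposite directions with the macrophage markers. They are the RefSeq promoters of build GRCm38.p6, from 250 bases before the start of the gene to 50 after it, whereas the submitters' processing notes name mm9 for the counts. Capitals mark the GC box GGGCGG and AGGTCA, the half-site of nuclear receptors, on either strand. In the order printed, the promoters lie at chr4:107923540-107923839 (minus strand), chr4:108118498-108118797 (minus strand), chr13:34994095-34994394 (minus strand), chr2:4918746-4919045 (plus strand) and chr19:3323051-3323350 (plus strand).
Cpt2: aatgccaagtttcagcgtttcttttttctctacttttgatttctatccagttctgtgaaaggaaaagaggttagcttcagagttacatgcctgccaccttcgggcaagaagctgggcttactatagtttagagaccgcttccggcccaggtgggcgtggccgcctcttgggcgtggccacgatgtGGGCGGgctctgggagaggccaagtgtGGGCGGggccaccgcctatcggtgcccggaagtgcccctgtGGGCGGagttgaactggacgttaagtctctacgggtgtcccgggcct
Scp2: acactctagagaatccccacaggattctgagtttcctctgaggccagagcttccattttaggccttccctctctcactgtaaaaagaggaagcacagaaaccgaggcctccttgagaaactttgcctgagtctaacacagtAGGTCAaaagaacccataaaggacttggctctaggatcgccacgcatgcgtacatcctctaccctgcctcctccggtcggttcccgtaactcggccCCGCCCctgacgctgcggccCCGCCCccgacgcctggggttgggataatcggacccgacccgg
Eci2: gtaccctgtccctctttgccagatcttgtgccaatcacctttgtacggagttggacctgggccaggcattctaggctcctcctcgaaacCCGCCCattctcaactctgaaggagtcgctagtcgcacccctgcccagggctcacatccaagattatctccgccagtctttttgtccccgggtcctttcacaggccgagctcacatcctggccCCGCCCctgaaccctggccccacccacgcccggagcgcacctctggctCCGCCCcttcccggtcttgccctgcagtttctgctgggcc
Phyh: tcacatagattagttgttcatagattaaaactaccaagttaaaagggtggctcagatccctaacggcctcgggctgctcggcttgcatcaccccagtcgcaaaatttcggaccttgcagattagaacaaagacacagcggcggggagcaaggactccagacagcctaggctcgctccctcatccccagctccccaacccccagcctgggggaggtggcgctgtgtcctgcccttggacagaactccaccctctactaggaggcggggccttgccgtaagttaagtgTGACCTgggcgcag
Cpt1a: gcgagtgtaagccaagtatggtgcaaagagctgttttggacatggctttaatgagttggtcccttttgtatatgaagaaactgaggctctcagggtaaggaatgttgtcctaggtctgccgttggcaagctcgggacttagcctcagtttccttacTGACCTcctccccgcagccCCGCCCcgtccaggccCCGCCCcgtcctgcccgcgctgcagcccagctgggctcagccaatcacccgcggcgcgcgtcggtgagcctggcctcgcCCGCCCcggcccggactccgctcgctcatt

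Cpt2, Eci2 and Cpt1a each held 3 GC boxes in this window, Scp2 held 2 and Phyh held 0. Scp2, Phyh and Cpt1a each held 1 AGGTCA. RefSeq promoters were matched for 25 of the 31 genes, 26 windows in all, since Abcd3 had 2. Crat, Acaa2, Decr1, Abcd2, Hsd17b4 and Amacr were not matched. The GC box was present in 19 of the 26 windows (73.1%), against 35.7% of all 32851 RefSeq promoters and 46.2% of the 21263 promoters of protein-coding genes.

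The direct repeat of AGGTCA with 1 base between the copies, the form bound by PPAR alpha with its partner RXR, was in 0 of the 26 windows and in 0.0396% of all promoters. AGGTCA alone, contained in that repeat and in TCAAGGTCA, was a motif added after the data were seen. It was in 6 of 26 windows (23.1%), those of Acadm, Acadvl, Cpt1a, Echs1, Phyh and Scp2. The shares to set beside it are 16.3% of all promoters and 14.7% of those of protein-coding genes. TCAAGGTCA, the site of estrogen-related receptors, was in 0 of 26 and in 0.423% of all. The palindromic site of the nuclear respiratory factor NRF1 was in 3 of 26 (11.5%), those of Abcd3, Etfdh and Ppara. It was in 6.23% of all promoters and in 8.57% of those of protein-coding genes. Both strands were searched, and a match describes the letters in the window only. The direct repeat and TCAAGGTCA are so rare among all promoters that their absence from 26 windows cannot tell these genes from others.

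The carnitine shuttle moves long acyl chains into mitochondria. Cpt2, the transferase of the inner membrane that returns the acyl group from carnitine to coenzyme A, had 61.6, 76.1, 84.3, 84.5 and 79.6 CPM in KO 1 to 5, against 61.5, 57.0, 64.0, 65.2 and 48.3 CPM in WT 1 to 5. KO 2 to 5 lay above every WT library, while KO 1 lay within the WT range. The means were 77.2 ± 9.41 CPM in KO and 59.2 ± 6.85 CPM in WT (SD, n = 5 each, as for every mean given), a log2 fold change of 0.38 ± 0.112 (SE; adjusted p = 0.235 in edgeR). The 95% interval was 0.14 to 0.63, its unadjusted p was 0.00508, and this p stayed under 0.05 in all 20 settings tried. The adjusted p of Cpt2 ran from 0.0820, in DESeq2, to 0.999 over those settings.

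The other steps of the shuttle had values close to those of WT fat. Cpt1a, the transferase of the outer membrane and the step at which malonyl-CoA restrains oxidation, averaged 169 ± 12.5 CPM in KO and 175 ± 24.4 CPM in WT, a log2 fold change of -0.054 ± 0.108 (SE; adjusted p = 0.862 in edgeR). Slc25a20, the carrier that exchanges acylcarnitine for carnitine, averaged 61.9 ± 4.84 CPM in KO and 55.6 ± 11.3 CPM in WT, with a log2 fold change of 0.15 (edgeR adjusted p = 0.654). Crat, which makes short-chain acylcarnitines, averaged 472 ± 50.6 CPM in KO and 514 ± 87.3 CPM in WT, with a log2 fold change of -0.12 (edgeR adjusted p = 0.708).

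Acyl-CoA dehydrogenases carry out the first step of each round and differ in the chain length they prefer. Acadl, the long-chain enzyme, had the smallest p of the 5, with 230.3, 225, 238, 327 and 307 CPM in KO 1 to 5, against 189, 204, 243, 251 and 259.8 CPM in WT 1 to 5. KO 4 and KO 5 were above every WT library, and KO 1 to 3 lay within the WT range. The result was a log2 fold change of 0.21 ± 0.135 (SE; adjusted p = 0.533 in edgeR). Acadm (medium-chain) had a log2 fold change of 0.14, Acadsb (short branched chains) of 0.15, Acadvl (very long-chain) of -0.0074 and Acads (short-chain) of -0.024. Their adjusted p in edgeR ran from 0.682 to 0.981, and 0 of these 4 had groups that stood apart.

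The later steps of the round are hydration, a second oxidation and thiolysis. Hadh, the hydroxyacyl-CoA dehydrogenase for medium and short chains, had 501, 639, 707, 696 and 582 CPM in KO 1 to 5, against 624, 498, 489, 556 and 578 CPM in WT 1 to 5. KO 2 to 4 were above every WT library, and KO 1 and KO 5 lay within the WT range, with a log2 fold change of 0.19 ± 0.116 (SE; adjusted p = 0.522 in edgeR). Hadha, the large subunit of the trifunctional protein of the inner membrane, averaged 172 ± 22.3 CPM in KO and 173 ± 40.3 CPM in WT, and the 95% interval of its log2 fold change was -0.33 to 0.33. Echs1, the short-chain enoyl-CoA hydratase, and Acaa2, the mitochondrial thiolase, had log2 fold changes of 0.029 and -0.016 (edgeR adjusted p = 0.949 and 0.959).

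Electrons leave the dehydrogenases through the electron transfer flavoprotein, of which Etfa encodes the alpha subunit, and its oxidoreductase Etfdh, which passes them to ubiquinone. Etfdh had 105, 83.6, 90.1, 109 and 111 CPM in KO 1 to 5, against 90.7, 85.1, 99.6, 106 and 110.0 CPM in WT 1 to 5. The groups overlapped over nearly their whole range, with a log2 fold change of 0.025 ± 0.107 (SE; adjusted p = 0.944 in edgeR). Etfa averaged 937 ± 119 CPM in KO and 953 ± 71.1 CPM in WT, with a log2 fold change of -0.025 (edgeR adjusted p = 0.944). Across the 10 libraries Etfa and Etfdh had a Pearson r of 0.604 (permutation p = 0.0620, adjusted over 3 gene pairs p = 0.186) and a Spearman rho of 0.661 (permutation p = 0.0440, adjusted p = 0.132). Without the 2 libraries farthest from the median of Etfa, r was 0.426.

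Unsaturated chains need auxiliary enzymes. Eci1, the mitochondrial isomerase that moves a double bond into place, had 129, 142, 152, 160.2 and 162 CPM in KO 1 to 5, against 169, 148, 128, 153 and 139 CPM in WT 1 to 5. WT 1 was the highest and WT 3 the lowest of the 10 libraries, so the KO values lay inside the WT range, with a log2 fold change of 0.018 ± 0.0973 (SE; adjusted p = 0.957 in edgeR). Decr1, the mitochondrial dienoyl-CoA reductase, averaged 449.8 ± 46.3 CPM in KO and 450.1 ± 44.5 CPM in WT, a log2 fold change of -0.0011 (edgeR adjusted p = 0.999).

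Import into peroxisomes uses transporters of the ABCD family. Abcd3, a carrier of branched chains and bile acid precursors, had 113, 114, 128, 125 and 122 CPM in KO 1 to 5, against 92.5, 103, 124, 107 and 115 CPM in WT 1 to 5. WT 1, WT 2 and WT 4 lay below every KO library and WT 3 and WT 5 lay within the KO range, with a log2 fold change of 0.15 ± 0.0913 (SE; adjusted p = 0.507 in edgeR). Abcd2, a carrier of very long chains that fat expresses, averaged 392 ± 49.2 CPM in KO and 371 ± 81.2 CPM in WT, a log2 fold change of 0.078 (edgeR adjusted p = 0.853).

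Among the peroxisomal beta-oxidation enzymes, Scp2 and Hsd17b4 had fold changes of opposite sign. Scp2, which encodes the thiolase for branched chains and sterol carrier protein, had 104, 121, 116, 111 and 106 CPM in KO 1 to 5, against 98.7, 85.2, 99.9, 85.6 and 94.2 CPM in WT 1 to 5. Every KO library lay above every WT library. Scp2 was the sole gene of the 30 whose groups did not overlap, where 2.78% of all genes tested did not overlap (1.39% with KO above and 1.38% with KO below). The means were 112 ± 6.82 CPM in KO and 92.7 ± 7.02 CPM in WT (SD, n = 5 each), with a log2 fold change of 0.27 ± 0.0815 (SE; adjusted p = 0.247 in edgeR) and a 95% interval of 0.089 to 0.44. Its unadjusted p of 0.0066 stayed under 0.05 in 19 of 20 settings, the exception being the fit without KO 3, KO 5 and WT 4.

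Hsd17b4, the bifunctional protein for hydration and dehydrogenation of branched and very long chains, had 495, 532, 504, 703 and 662 CPM in KO 1 to 5, against 738, 754, 580.0, 800.0 and 633 CPM in WT 1 to 5. KO 1 to 3 lay below every WT library and KO 4 and KO 5 lay within the WT range, with a log2 fold change of -0.28 ± 0.132 (SE; adjusted p = 0.403 in edgeR) and a 95% interval of -0.56 to 0.011. Acaa1a, the thiolase for straight chains, had 112, 84.4, 99.2, 105 and 99.7 CPM in KO 1 to 5, against 97.8, 131, 108, 132 and 109 CPM in WT 1 to 5, with a log2 fold change of -0.21 ± 0.108 (SE; adjusted p = 0.434 in edgeR). WT 2 and WT 4 lay above every KO library, KO 2 lay below every WT library, and the other 7 libraries overlapped. Both genes are shown because of their low values in KO fat, a choice made after those values were seen, and neither passed the test. The unadjusted p was under 0.05 in 6 of 20 settings for Hsd17b4, DESeq2 among them, and in 2 of 20 for Acaa1a.

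Acox3, an oxidase of branched acyl-CoA, averaged 30.7 ± 6.04 CPM in KO and 25.7 ± 4.46 CPM in WT, with a log2 fold change of 0.26 (edgeR adjusted p = 0.507). Its level went with the summed epididymis markers (Pearson r = 0.770, adjusted over 330 relations permutation p = 0.145; Spearman rho = 0.624, adjusted permutation p = 0.359), and r was 0.424 without the 2 libraries farthest from the median of that sum. Without KO 3, KO 5 and WT 4, r was -0.606 and the log2 fold change was 0.17. The part of epididymis RNA in the values of Acox3 was not tested. Ehhadh, the other bifunctional protein and a known target of PPAR alpha, averaged 55.3 ± 12.1 CPM in KO and 61.1 ± 5.34 CPM in WT, with a log2 fold change of -0.14 (edgeR adjusted p = 0.69). It was -0.053 without KO 1, -0.26 without KO 3 and -0.33 without KO 3, KO 5 and WT 4. Ehhadh and Hsd17b4 had a Pearson r of 0.0875 (permutation p = 0.808, also after adjustment) and a Spearman rho of 0.0667 (permutation p = 0.864, also after adjustment) over the 10 libraries, and r was -0.413 without the 2 libraries farthest from the median of Ehhadh.

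Eci2, an enoyl-CoA isomerase found in peroxisomes and also in mitochondria, had 74.2, 89.7, 89.8, 93.3 and 77.6 CPM in KO 1 to 5, against 74.6, 67.5, 81.7, 69.9 and 73.5 CPM in WT 1 to 5. KO 2 to 4 lay above every WT library, and KO 1 and KO 5 lay within the WT range. The means were 84.9 ± 8.42 CPM in KO and 73.4 ± 5.44 CPM in WT (SD, n = 5 each), with a log2 fold change of 0.21 ± 0.0913 (SE; adjusted p = 0.373 in edgeR). Its 95% interval was 0.01 to 0.41, and its unadjusted p was under 0.05 in 11 of 20 settings.

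Alpha-oxidation and the handling of branched chains rest on Phyh, Hacl1 and Amacr. Phyh, the hydroxylase that starts the breakdown of phytanic acid, averaged 95.2 ± 16.6 CPM in KO and 82.6 ± 25.6 CPM in WT, with a log2 fold change of 0.20 (edgeR adjusted p = 0.687). It was 0.086 without WT 5 and 0.39 without WT 1, the 1 setting of 20 in which its unadjusted p was under 0.05. Hacl1, the lyase that follows it, had a log2 fold change of 0.089, and Amacr, a racemase that prepares branched chains, of 0.025 (edgeR adjusted p = 0.749 and 0.96), and the sign of Amacr turned in 5 of 20 settings. Decr2, the peroxisomal dienoyl-CoA reductase, had 2, 1, 0, 2 and 3 reads in KO 1 to 5 and 2, 3, 1, 4 and 1 reads in WT 1 to 5. A difference in Decr2 was not detectable at this depth, where 3 reads correspond to 0.287 to 0.398 CPM.

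**Figure D2:**
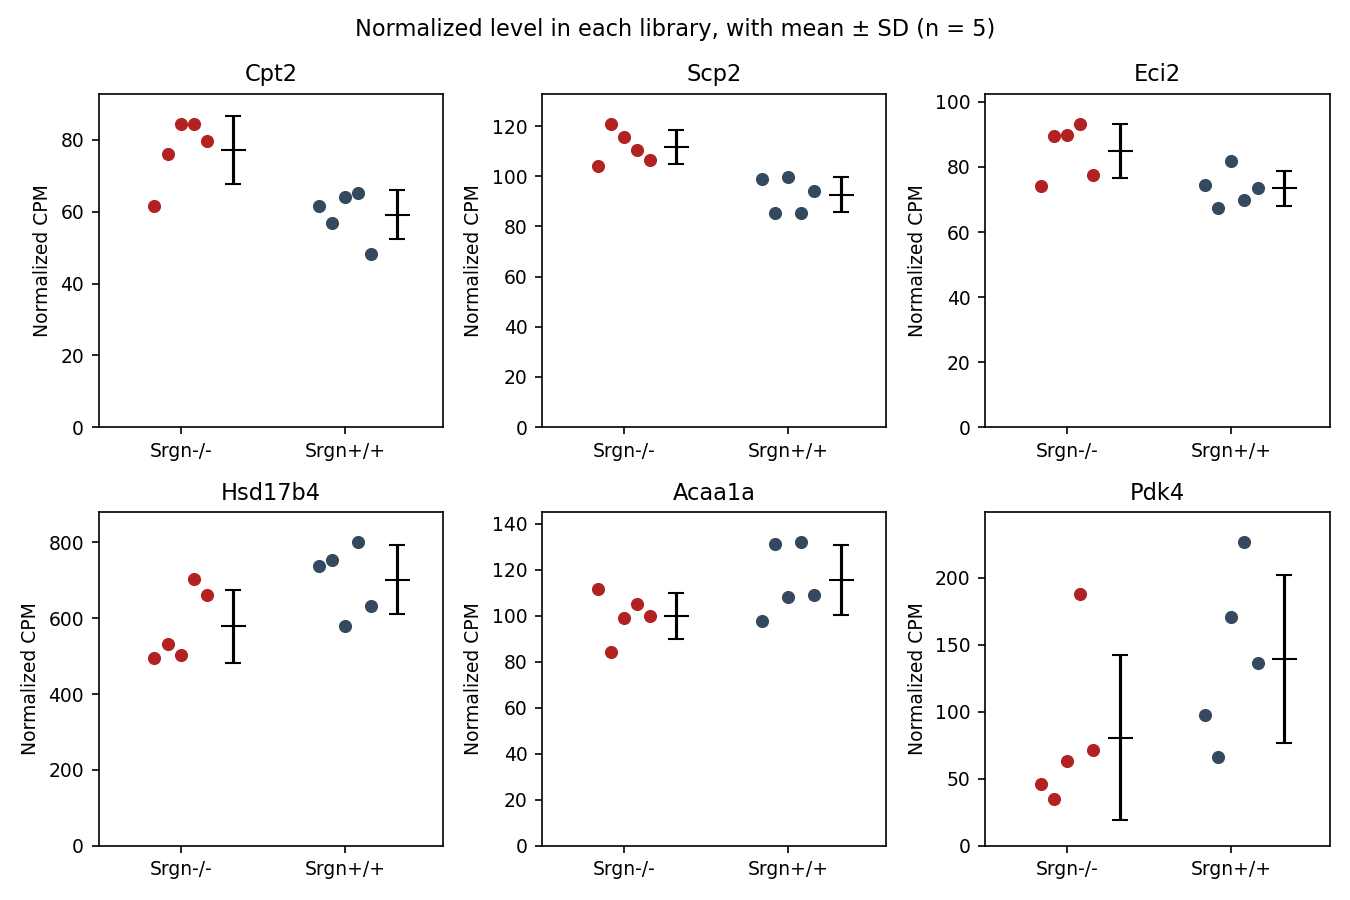
Normalized CPM (y axis, from 0) of Cpt2, Scp2, Eci2, Hsd17b4, Acaa1a and Pdk4 in each library, with Srgn-/- left of Srgn+/+ and the mean ± SD of 5 libraries beside the points. The groups stand apart for Scp2 and overlap for the other 5 genes.

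Of the regulators, Pdk4 varied most. Pdk4 encodes the kinase that inhibits pyruvate dehydrogenase when fatty acids are burned and is a known target of PPAR alpha. It had 46.2, 35.1, 63.3, 188 and 71.4 CPM in KO 1 to 5, against 97.6, 66.3, 171, 227 and 136 CPM in WT 1 to 5. KO 1 to 3 lay below every WT library, and KO 4 and KO 5 lay within the WT range. The result was a log2 fold change of -0.79 ± 0.470 (SE; adjusted p = 0.51 in edgeR), with a 95% interval of -1.83 to 0.25. Without KO 4 the log2 fold change was -1.37, and without WT 4 it was -0.55. Its unadjusted p was under 0.05 in 2 of 20 settings, limma-voom and the fit without KO 4. Its range over the 10 libraries was 6.46-fold, the widest of the 30 genes, ahead of Acadsb at 2.84-fold.

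Ppara, the receptor gene, had 7.74, 13.2, 14.4, 7.02 and 11.1 CPM in KO 1 to 5, against 13.2, 9.84, 8.22, 12.1 and 8.49 CPM in WT 1 to 5, with a log2 fold change of 0.043 ± 0.225 (SE; adjusted p = 0.954 in edgeR). Ppara and Pdk4 had a Pearson r of -0.345 (permutation p = 0.320, adjusted p = 0.480) and a Spearman rho of -0.370 (permutation p = 0.296, adjusted p = 0.443), and r was -0.105 without the 2 libraries farthest from the median of Ppara.

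The highest and lowest values of the 30 genes were unevenly spread over the animals. The same counts over all genes tested were not computed, so this spread is not shown to be particular to the pathway. KO 4 held the highest value for 9 of the 30 genes and the lowest for 1, whereas KO 1 held the highest for 0 and the lowest for 8. WT 1 was highest for 6 genes, namely Crat, Acadsb, Eci1, Abcd2, Phyh and Amacr, and lowest for 7, namely Cpt1a, Slc25a20, Acadl, Hadha, Decr1, Abcd3 and Acox3. WT 5 was highest for Cpt1a, Acads, Hadha and Acaa2 and lowest for Cpt2, Acadsb, Abcd2 and Phyh. Relative to the mean of each gene over 10 libraries, the median log2 deviation of the mitochondrial genes was 0.20 in KO 4, -0.16 in KO 1 and -0.17 in WT 2. That of the peroxisomal genes was 0.076, -0.17 and -0.087 in these libraries, and it was highest in KO 3, at 0.17. KO 3 also had the highest sum of epididymis genes, at 2549.6 CPM. Pearson r with that sum was positive for 23 of the 30 genes and negative for 7, and 0 passed adjustment. The same split over all genes was not computed, and the part of epididymis RNA in these values was not tested.

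**Figure D3:**
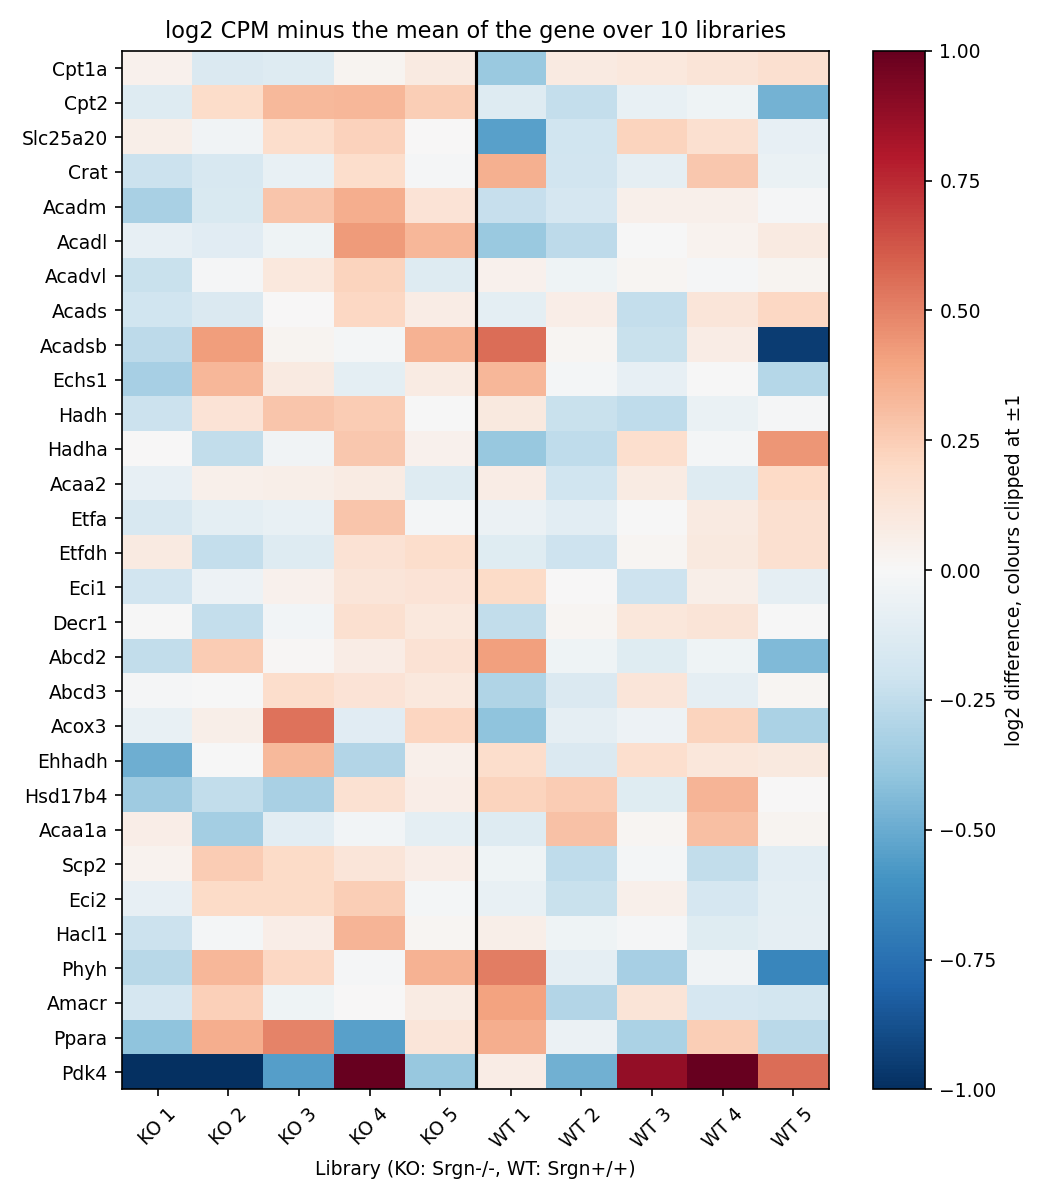
Each row is 1 of the 30 tested genes and each column a library (Srgn-/- left, Srgn+/+ right), and the colour gives log2 CPM minus the mean of the gene over 10 libraries. Many mitochondrial genes are high in KO 4, and many genes of both compartments are low in KO 1. WT 1 is split between genes at their highest and at their lowest.

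The tissue holds several cell types, and in these bulk libraries fewer cells of a type and less RNA per cell cannot be told apart. All 10 macrophage markers had a lower mean in KO. Among them C1qa was below the filter, with 0 or 1 reads in KO and 1 to 4 reads in WT libraries. These are too few reads to give C1qa a direction. The macrophage sum was 1778 to 3429.7 CPM in KO and 1684 to 5971 CPM in WT, with 51.3% to 64.7% of it from Lyz2. T cell markers summed to 8.09 to 14.4 CPM in KO and 12.1 to 48.5 CPM in WT, and B cell markers to 7.06 to 16.9 CPM in KO and 13.3 to 25.04 CPM in WT. Of the 6 endothelial markers 5 had a higher mean in KO, with a sum of 661 to 922 CPM in KO and 624 to 803 CPM in WT. Across the libraries the endothelial sum had a Pearson r of 0.805 with Cpt2, 0.777 with Scp2 and 0.741 with Eci2 (permutation p adjusted over 330 relations of 0.145, 0.145 and 0.167), and a Spearman rho of 0.612, 0.758 and 0.697 (adjusted permutation p = 0.387, 0.223 and 0.276). Within genotypes these r were 0.622, 0.549 and 0.536, and without the 2 libraries farthest from the median of the sum they were 0.896, 0.626 and 0.630. No endothelial marker was at 0 in any library, and of the macrophage markers C1qa alone was at 0 in some. The part of endothelial and macrophage RNA in the values of Cpt2, Scp2 and Eci2 was not tested.

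The 330 relations, 30 genes against 11 marker sums, were looked at after the data were seen, and 2 passed at an adjusted p under 0.05. The share of all genes tested that follow these sums as closely was not computed. Neither relation is therefore shown to be particular to the pathway. Phyh went down as the macrophage sum went up. Phyh had 71.2, 109, 99.7, 85.9 and 110.2 CPM in KO 1 to 5, against 123, 81.4, 68.6, 84.4 and 55.1 CPM in WT 1 to 5, and the macrophage sum was 3429.7, 1797, 1778, 3152 and 2214 CPM in KO 1 to 5, against 1684, 3394, 4127, 3469.7 and 5971 CPM in WT 1 to 5. Pearson r was -0.953 (permutation p = 8e-05, adjusted p = 0.0132) and Spearman rho was -0.915 (permutation p = 0.00055, adjusted p = 0.0605). Within genotypes r was -0.954, and without the 2 libraries farthest from the median of the sum it was -0.962 (exact permutation p = 0.000446, adjusted p = 0.147). Leaving out any 1 library gave -0.973 to -0.924, with an adjusted p of 0.0664 without KO 4, 0.0559 without WT 1, 0.0755 without WT 3 and 0.0870 without WT 5 (exact permutation tests). Without KO 3, KO 5 and WT 4, r was -0.983 (exact permutation, adjusted p = 0.0655). With the adipocyte sum, Phyh had a Pearson r of 0.730 and a Spearman rho of 0.673, which did not pass (adjusted permutation p = 0.155 and 0.300), with an r of 0.888 within genotypes and 0.609 without the 2 farthest libraries. Its r was 0.732 with the endothelial sum and 0.676 with the mesothelial sum (adjusted permutation p = 0.166 and 0.211), with a rho of 0.721 and 0.661 and, without the 2 farthest libraries, an r of 0.793 and 0.505. The macrophage sum ran against all these sums, with an r of -0.634 with the adipocyte, -0.756 with the endothelial and -0.665 with the mesothelial sum (unadjusted permutation p = 0.0450, 0.0146 and 0.0377; rho = -0.624, -0.745 and -0.673), so a relation to 1 cell type cannot be told apart from a relation to the others.

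Acadl went with the brown and beige adipocyte markers, whose sum was 80.6, 55.1, 93.8, 194 and 143 CPM in KO 1 to 5, against 35.03, 60.0, 96.0, 101 and 94.5 CPM in WT 1 to 5. Cox8b, a subunit of cytochrome oxidase, made up 78.4% to 90.8% of that sum, and Ucp1, the uncoupling protein that defines brown fat, was at 0.0980 to 0.765 CPM in KO and 0.478 to 1.03 CPM in WT. These were 1 to 6 reads of Ucp1 in KO and 5 to 9 reads in WT libraries, below the filter. Zic1, also below the filter, had 1 read in KO 4 and 0 reads in every other library. These reads are too few to give either gene a direction. Pearson r was 0.956 (permutation p = 4e-05, adjusted p = 0.0132) and Spearman rho was 0.952 (permutation p = 0.00015, adjusted p = 0.0495). With the mean log2 CPM of the markers, which weighs each alike, r was 0.872. Within genotypes r was 0.949, and without the 2 libraries farthest from the median of the sum it was 0.902 (exact permutation p = 0.0031, adjusted p = 0.205). Leaving out any 1 library gave 0.932 to 0.966, with an adjusted p of 0.0664 without KO 4 and 0.0559 without WT 1 (exact permutation tests). Without KO 3, KO 5 and WT 4, r was 0.962 (exact permutation, adjusted p = 0.131). The sum of skeletal muscle markers was, like Acadl and the brown and beige sum, highest in KO 4 (67.1 CPM) and lowest in WT 1 (15.9 CPM). Whether Acadl follows 1 of these sums rather than the other was not tested.

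After Phyh, the 4 genes with the largest r in size with the macrophage sum did not pass adjustment. Pearson r with the macrophage sum was -0.876 for Acadsb and -0.872 for Abcd2 (adjusted permutation p = 0.0718 for both), -0.848 for Echs1 and 0.812 for Cpt1a (adjusted permutation p = 0.0915 for both). Spearman rho was -0.782, -0.867, -0.770 and 0.915 for the 4 genes in that order (adjusted permutation p = 0.223, 0.167, 0.223 and 0.0605). Without the 2 libraries farthest from the median of the sum, r was -0.933, -0.924, -0.819 and 0.771. With the adipocyte sum the same 4 genes had an r of 0.702, 0.800, 0.771 and -0.755 (adjusted permutation p = 0.211, 0.145, 0.145 and 0.159), a rho of 0.733, 0.709, 0.685 and -0.479 and, without the 2 farthest libraries, an r of 0.645, 0.605, 0.518 and -0.467. Echs1 had an r of 0.834 with the mesothelial sum (adjusted permutation p = 0.119), a rho of 0.855 and, without the 2 farthest libraries, an r of 0.654. Cpt1a had 177, 155, 157, 174 and 183 CPM in KO 1 to 5, against 132, 183, 185, 187 and 191 CPM in WT 1 to 5. It was lowest in WT 1, the library with the least macrophage signal, and highest in WT 5, the library with the most. Over all 30 genes, r with the macrophage sum was negative for 17 and positive for 13, and the same split over all genes tested was not computed.

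**Figure D4:**
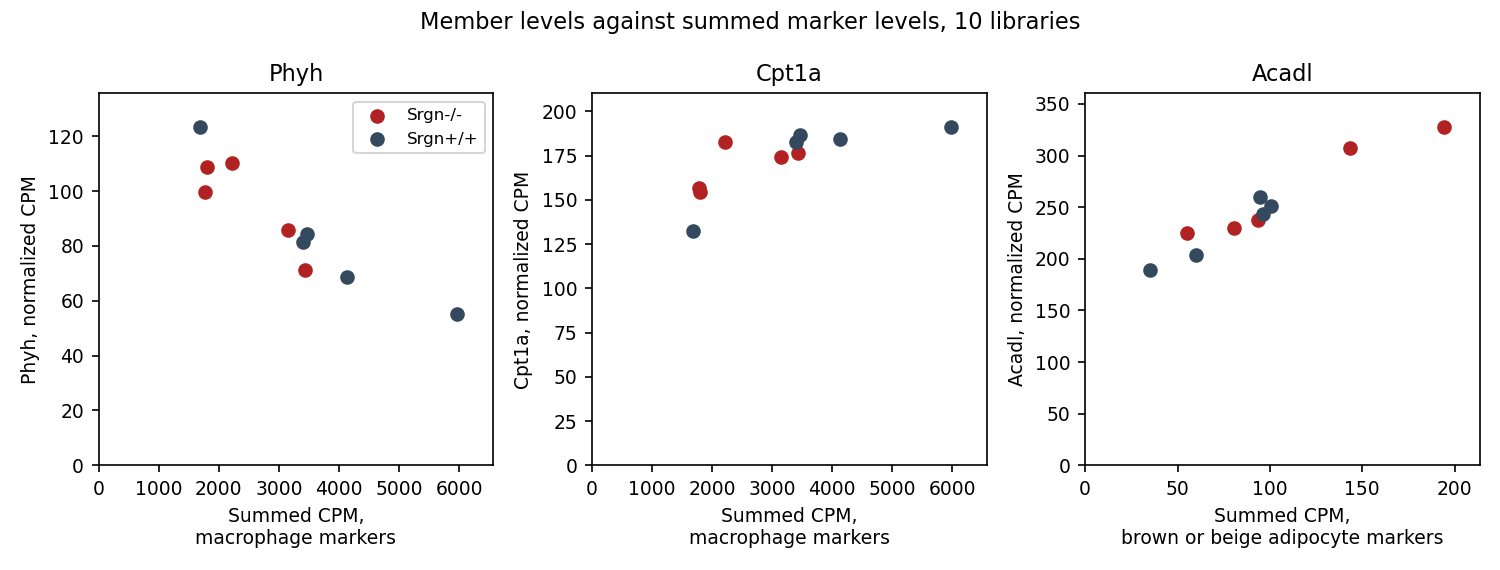
Normalized CPM of Phyh, Cpt1a and Acadl (y axes, from 0) against the summed CPM of macrophage or of brown and beige adipocyte markers (x axes), with 1 point per library and colours for the genotype. Phyh is lowest and Cpt1a highest in WT 5, the library with the highest macrophage sum of 5971 CPM.

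Cpt2 and Scp2 lie near each other on chromosome 4, with 2 protein-coding genes between them and 195 kb between their promoters in GRCm38.p6. Their neighbours were therefore examined, a choice made after their values were seen. Magoh, an RNA-binding factor of the exon junction complex, had 20.7, 20.5, 18.2, 17.1 and 20.4 CPM in KO 1 to 5, against 15.3, 16.8, 15.8, 12.5 and 15.1 CPM in WT 1 to 5, so the groups did not overlap, with a log2 fold change of 0.36 ± 0.115 (SE; adjusted p = 0.255 in edgeR). Of all genes tested, 2.78% had groups that did not overlap. Echdc2, a hydratase-like gene on the other side, had a log2 fold change of 0.53 (edgeR adjusted p = 0.412). Podn, between Cpt2 and Scp2, had 0.025 and Zyg11a, further out, -0.45 on the same scale (edgeR adjusted p = 0.978 and 0.543). None of these neighbours passed the test in edgeR.

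**Figure D5:**
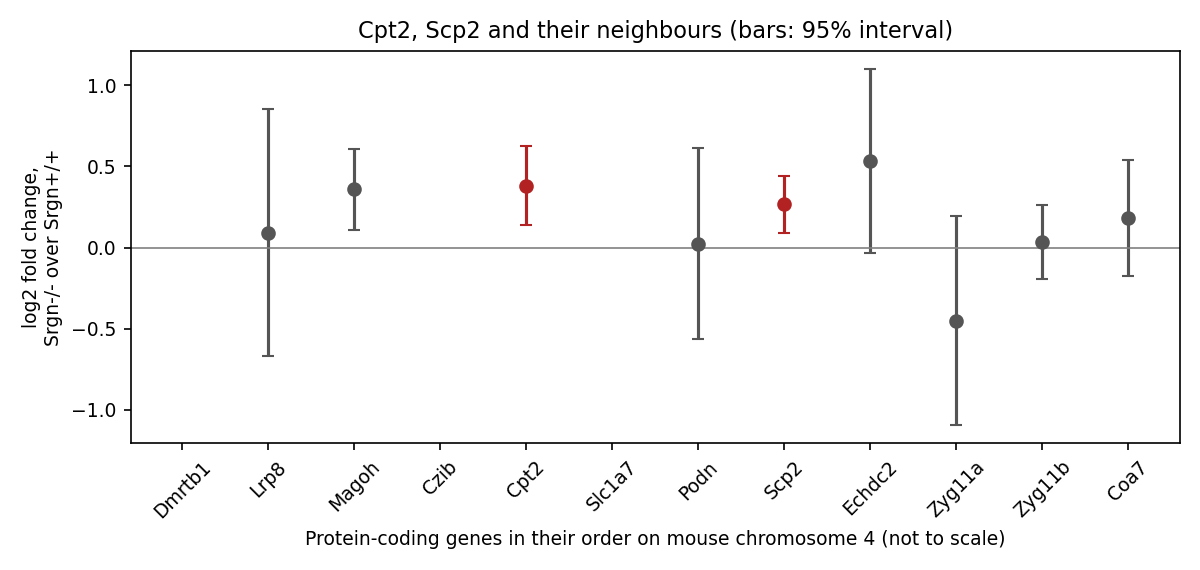
Log2 fold change of Srgn-/- over Srgn+/+ with 95% intervals (y axis) for Cpt2 and Scp2 (red) and their protein-coding neighbours (grey), in their order on mouse chromosome 4 and not to scale. The intervals of Cpt2, Scp2 and Magoh lie above 0 while Podn, which lies between Cpt2 and Scp2, is near 0. Dmrtb1 and Slc1a7 were below the filter and Czib was not analysed here, so these have no point.

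Further genes of fatty acid use were taken from 4 lists, and 0 of those tested passed adjustment. The shares of all genes to set beside their counts are 6.77% higher and 6.06% lower in KO at an unadjusted p under 0.05, and 2.78% without overlap of the groups. Of 18 other mitochondrial oxidation genes tested, 1 was higher and 1 lower in KO at an unadjusted p under 0.05 and 0 passed adjustment, with a median log2 fold change of 0.077. Cpt1c, a carnitine transferase paralog best known from neurons, averaged 3.51 ± 0.880 CPM in KO and 2.14 ± 0.604 CPM in WT (edgeR adjusted p = 0.346). Acad9, a dehydrogenase that also helps to assemble respiratory complex I, averaged 71.2 ± 7.87 CPM in KO and 83.4 ± 8.69 CPM in WT (edgeR adjusted p = 0.376). Acsl5, which activates long chains, and Acad12 had log2 fold changes of -0.36 and -0.41 (edgeR adjusted p = 0.43 and 0.433).

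Of 17 other peroxisomal oxidation genes, 2 were higher and 1 lower at an unadjusted p under 0.05, 0 passed adjustment, and 12 had lower values in KO (median log2 fold change -0.062). Slc27a2, which activates very long chains, had 2.25, 9.79, 5.95, 3.19 and 6.45 CPM in KO 1 to 5, against 1.64, 1.34, 3.15, 1.83 and 2.52 CPM in WT 1 to 5. KO 2 to 5 lay above every WT library and KO 1 within the WT range, with a log2 fold change of 1.40 ± 0.401 (SE; adjusted p = 0.225 in edgeR). Slc25a17, a peroxisomal carrier of cofactors, averaged 104 ± 5.73 CPM in KO and 90.9 ± 2.36 CPM in WT without overlap of the groups (edgeR adjusted p = 0.318). Acbd4 and Nudt19 had log2 fold changes of -0.41 and 0.22 (edgeR adjusted p = 0.327 and 0.398).

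Of 15 peroxins, the proteins that build peroxisomes, 1 was higher and 1 lower at an unadjusted p under 0.05 and 0 passed adjustment (median log2 fold change -0.061). Pex13, part of the docking complex for imported enzymes, averaged 146 ± 15.5 CPM in KO and 118 ± 9.93 CPM in WT without overlap of the groups (edgeR adjusted p = 0.247). Pex19, the chaperone of peroxisomal membrane proteins, averaged 348 ± 25.8 CPM in KO and 401 ± 30.6 CPM in WT (edgeR adjusted p = 0.367). Pex10, a subunit of the ubiquitin ligase of import, had a log2 fold change of -0.25 (edgeR adjusted p = 0.438).

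Of 19 other PPAR regulators and targets, 1 was higher and 1 lower at an unadjusted p under 0.05 and 0 passed adjustment (median log2 fold change -0.011). Ucp3, a mitochondrial carrier linked to fatty acid use, averaged 89.4 ± 11.3 CPM in KO and 64.9 ± 16.1 CPM in WT (edgeR adjusted p = 0.303), and Vnn1, a pantetheinase, averaged 6.13 ± 1.49 CPM in KO and 8.94 ± 2.08 CPM in WT (edgeR adjusted p = 0.346). Esrra and Ppargc1a, an orphan receptor and its coactivator, had log2 fold changes of -0.19 and 0.37 (edgeR adjusted p = 0.389 and 0.586).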

How the data were processed

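Total RNA of epididymal white adipose tissue from 10 mice was read with the Ion AmpliSeq mouse transcriptome kit, per the labels' protocols. The authors deposited raw read counts for 23930 amplicons, and reads-per-million (RPM) values that equal the counts scaled by the column total (largest difference 0.000591). The submitters' processing notes name build mm9. No aligner or read counter is named (not given in the sources used here). Since AmpliSeq reads carry no molecular identifiers, floors of 3 reads cover only counting error, and whether an amplicon also reads a related gene was not tested.

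Counts were filtered with filterByExpr (minimum count 10, minimum total 15) and compared, KO over WT, by the two-sided quasi-likelihood test of edgeR 4.0.16 in R 4.3.3, with trimmed mean of M-values (TMM) factors, robust dispersion and Benjamini-Hochberg adjustment over 12719 genes (threshold 0.05). SE is the log2 fold change divided by the root of F. The script was tested on simulated data. Alternatives were other scalings and filters, DESeq2 1.42.0, limma 3.58.1 (voom, and trend on log2 of the authors' RPM plus 1), and left-out libraries. Correlations used log2 CPM (prior count 2) and 100000 resamples, or all orders below 10 libraries, in Python 3.11.15. P-values of edgeR set the difference between genotypes against the spread between animals. Those of the correlations come from reordering the libraries without regard to genotype. The numbers of the animals follow accession order.

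The genes, the lists and the libraries left out together were chosen with earlier results of these data known. By rule, full values are given for genes with an unadjusted p under 0.05 and for the smallest p in each role group, and of each further list up to 4 genes with the smallest p, of which some are not reported here. Hsd17b4, Acaa1a, Phyh, Cpt1a, Ppara and the chromosome 4 neighbours were added after their values were seen. Of 6 gene pairs set for correlation 3 could be computed. Protein features were not analysed here.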

Additional observations from a re-analysis of the deposited data

Results flagged for a closer look

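In 4 of the 60 groups of 5 libraries looked at, 30 genes in each genotype, 1 library stood far from the others of its group. Chance alone gives about 1 in 20 groups. Pdk4 was at 188 CPM in KO 4, against 35.1 to 71.4 CPM in the other KO libraries. Etfa was at 1143 CPM in KO 4, against 841 to 927 CPM in the other KO libraries. Cpt1a was at 132 CPM in WT 1, against 183 to 191 CPM in the other WT libraries. Ehhadh was at 52.0 CPM in WT 2, against 61.4 to 65.1 CPM in the other WT libraries.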

How the results depend on the processing

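In all 20 settings 0 of the fatty acid oxidation genes were called. No paired analysis was possible because the labels give the animals no shared replicate numbers. Over the whole table, 3 genes were called without the filter and 221 in DESeq2 (114 higher and 107 lower in KO), against 1 in edgeR, and 1 to 2 when 1 library was left out. Genes of the pathway at an unadjusted p under 0.05 numbered 1 (Cpt2) without KO 3, KO 5 and WT 4, a fit with fewer animals in which 4.17% of all genes reached that level. They numbered 2 to 5 when 1 library was left out, where 8.7% to 17.6% of all genes did, with 5 reached without KO 1 (15.6%) and without WT 3 (12.7%). The median log2 fold change lay between -0.011 (without KO 4) and 0.067 (total reads only) for the mitochondrial genes and between 0.072 and 0.15 for the peroxisomal genes. Each moved from its reported value (0.018 and 0.089) by less than the spread between libraries of a group (SD 0.121 and 0.100). That spread is larger than either median, so this does not show that the medians were stable. Pdk4 had a log2 fold change of -0.39 without KO 3, KO 5 and WT 4. Changes of sign concerned uncalled log2 fold changes, within 0.1 of 0 except for Acadsb (0.15), and the cause was not tested. With upper-quartile factors they were 0.024 for Acadvl, 0.0095 for Acads, 0.031 for Hadha, 0.016 for Acaa2, 0.0073 for Etfa and 0.032 for Decr1. With total reads only they were 0.041 for Acadvl, 0.027 for Acads, 0.045 for Hadha, 0.034 for Acaa2, 0.023 for Etfa and 0.048 for Decr1. Limma-voom gave 0.015 for Hadha. Limma-trend gave 0.00064 for Cpt1a, 0.030 for Acadvl, 0.023 for Acads, 0.061 for Hadha, 0.034 for Acaa2, 0.015 for Etfa and 0.044 for Decr1. Without KO 3, KO 5 and WT 4 they were -0.0094 for Echs1, 0.021 for Etfa, -0.017 for Eci1, 0.0075 for Decr1, -0.0075 for Amacr and -0.092 for Ppara. Leaving out 1 library at a time gave -0.014 to 0.21 for Abcd2, -0.064 to 0.031 for Acaa2, -0.082 to 0.026 for Acads, -0.014 to 0.34 for Acadsb, -0.069 to 0.043 for Acadvl, -0.041 to 0.15 for Amacr, -0.059 to 0.054 for Decr1, -0.056 to 0.12 for Echs1, -0.030 to 0.071 for Eci1, -0.11 to 0.011 for Etfa, -0.022 to 0.082 for Etfdh, -0.090 to 0.12 for Hadha and -0.085 to 0.16 for Ppara. The correlation of Etfa and Etfdh ran from 0.539 to 0.775 when 1 library was left out, and passed without KO 1 (r = 0.775, exact permutation, adjusted p = 0.0321). That of Ehhadh and Hsd17b4 was -0.164 within genotypes, -0.413 without the 2 farthest libraries and -0.419 to 0.380 when 1 library was left out. With a median SE of 0.121 for the 30 genes, small fold changes could not be resolved in 5 animals a group.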
